A study of Homo sapiens with 12 samples.

Results

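Genes of the kinetochore, the spindle checkpoint and chromosome condensation were followed through treatment of a cancer cell line with a Wee1 inhibitor, an Hsp90 inhibitor or both. The 46 genes were taken from a list of symbols, and all 46 were found among the 19775 genes measured. They fall into 7 subgroups: 9 centromere proteins of the CENP series, 7 genes of the NDC80 and MIS12 complexes counted with KNL1, 5 checkpoint genes, 6 genes of Aurora kinases and their partners, 6 anaphase genes, 6 condensin genes counted with topoisomerase II, and 7 other mitotic genes. This list and the other gene lists below were chosen with earlier results of these data known. Shares of all genes set beside their counts are therefore a description and no independent support. RNA came from 12 samples labelled PC3, an established prostate cancer line, in 4 groups of 3. Controls, labelled untreated, received vehicle per the treatment protocol, the Wee1 group received Wee1 inhibitor II at 2.5 µM, the 17-AAG group received 17-AAG at 40 nM, and the combination group received both. Wee1 inhibitor II was given 24 h before 17-AAG, and cells were harvested 48 h later. The title of the study names sensitisation of prostate cancer cells to an Hsp90 inhibitor by Wee1 inhibition as its question. Control replicate 2, whose title notes a weak signal, was set aside by the submitters. This leaves 11 arrays to compare, of which 2 are controls and each treated group has 3. Separate cultures are not stated for the replicates, so the p-values measure the spread between these samples alone, and that spread may be technical.

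The kinetochore is the protein plate that joins a centromere to spindle microtubules. Most of the CENP proteins listed build its base on centromeric chromatin, and the MIS12, KNL1 and NDC80 complexes form the outer part that grips microtubules. Kinetochores without a microtubule send out the checkpoint signal made by TTK, BUB1, BUB1B, BUB3 and MAD2L1, which holds back CDC20 and the anaphase-promoting complex until all chromosomes are attached. Cycling cells make most of these messages in G2 and mitosis, when the MuvB complex with MYBL2 and then FOXM1 activates their promoters. Wee1 phosphorylates CDK1 and so keeps it inactive until mitosis. Hsp90, the target of 17-AAG, is a chaperone that keeps many kinases folded.

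The element through which MuvB recognises such promoters, the cell cycle genes homology region (CHR), has the core TTTGAA, and it often lies near CCAAT boxes, which bind NF-Y. RefSeq promoter windows of 300 bases, from 250 before to 50 after a gene's start (GRCh38.p14), were matched for 36 of the 46 genes, as 42 windows. Each window was searched for both motifs on both strands, with overlaps allowed. The CHR core stood in 23 of the 42 windows (54.8%), against 15.2% of the 35116 windows in the table. The CCAAT box stood in 30 windows (71.4%, against 34.6%), and 16 windows held both motifs (38.1%, against 5.90%). The 140 bases before the start are shown for 7 genes, 5 of which fell with both drugs and carry the CHR core, and 2 of which stand apart from the rest. Each runs 5′ to 3′ along the gene, ending at the base before the start, with the CHR core and the CCAAT box (reverse strand, ATTGG) in capitals. PRC1 lies at chr15:90994536-90994675 on the minus strand, ESPL1 at chr12:53268159-53268298 on the plus strand, NCAPG at chr4:17810839-17810978 on the plus strand, CDC20 at chr1:43358841-43358980 on the plus strand, and MKI67 at chr10:128126424-128126563 on the minus strand.
PRC1: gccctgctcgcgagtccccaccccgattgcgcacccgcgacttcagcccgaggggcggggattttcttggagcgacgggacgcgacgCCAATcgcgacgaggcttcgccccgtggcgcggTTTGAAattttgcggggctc
ESPL1: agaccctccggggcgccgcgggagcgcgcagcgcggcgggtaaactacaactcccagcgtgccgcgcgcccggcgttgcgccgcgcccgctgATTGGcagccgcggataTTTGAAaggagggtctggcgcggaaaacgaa
NCAPG: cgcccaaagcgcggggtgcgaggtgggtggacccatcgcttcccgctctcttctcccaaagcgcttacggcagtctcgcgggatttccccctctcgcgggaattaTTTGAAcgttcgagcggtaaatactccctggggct
CDC20: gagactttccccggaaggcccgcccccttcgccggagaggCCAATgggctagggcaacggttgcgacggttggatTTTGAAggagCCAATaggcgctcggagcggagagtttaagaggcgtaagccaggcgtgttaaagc
MKI67: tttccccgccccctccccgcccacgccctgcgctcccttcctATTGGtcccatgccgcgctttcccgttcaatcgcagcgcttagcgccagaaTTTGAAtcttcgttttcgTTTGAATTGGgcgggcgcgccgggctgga
INCENP, at chr11:62123871-62124010 on the plus strand, was the only one of the 46 called lower in no comparison, yet its window holds the CHR core and 3 CCAAT boxes. MIS12, at chr17:5486234-5486373 on the plus strand, had the smallest fall with both drugs of the NDC80 and MIS12 subgroup, and neither of its 2 windows holds the CHR core. NCAPD2, a condensin gene that does have the core, fell by about as little (-0.63, against -0.64 for MIS12).
INCENP: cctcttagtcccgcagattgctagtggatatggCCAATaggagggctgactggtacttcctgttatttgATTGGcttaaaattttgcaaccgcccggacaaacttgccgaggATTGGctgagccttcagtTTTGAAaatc
MIS12: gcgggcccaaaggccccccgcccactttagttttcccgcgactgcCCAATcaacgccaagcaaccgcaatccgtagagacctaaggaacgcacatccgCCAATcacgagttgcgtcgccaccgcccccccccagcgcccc
A match describes letters and not a bound site, and the absence of these letters says only that they are not in the window. In PRC1 the CHR core begins 20 bases before the start and the CCAAT box 53 bases before it, and in ESPL1 the distances are 31 and 48 bases. MKI67 holds 2 copies of the CHR core, the second of which shares letters with a CCAAT box on the reverse strand.

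The arrays were checked against the PC3 label before any comparison. On all 11 arrays the 6 pigment cell markers measured read above 100, and TYRP1, an enzyme of melanin synthesis, read 11119 to 15390. EPCAM, an epithelial adhesion protein, read 5.33 to 26.2, and HOXB13, a prostate transcription factor, 2.14 to 11.3. Only KRT18 of 8 prostate epithelial markers read above 100 on every array. The control array set aside held the reverse, with EPCAM at 1096, HOXB13 at 2087 and MLANA at 2.67. The 11 arrays compared therefore carry the markers of pigment cells and not those of the labelled line, and the groups are called here by their labelled treatments. Summed pigment markers were 31680 to 33240 in the controls, 25705 to 28256 with Wee1 inhibitor II, 39321 to 44640 with 17-AAG and 46545 to 48136 with both drugs. The markers did not move together with Wee1 inhibitor II. MLANA, PMEL and MITF were called lower than control, TYR was called higher (2153 to 3713), and TYRP1 and SOX10 were not called. Of blood cell markers 0 of 4, and of fibroblast markers 1 of 6, read above 100 on every array. Summed fibroblast markers were 1084 to 1224 in control, 430.0 to 477 with Wee1 inhibitor II, 1782 to 1925 with 17-AAG and 781 to 840.3 with both drugs. Most of that sum was LUM, a matrix proteoglycan, which was called lower, higher and lower than control in these 3 treated groups. The gap between 3-prime and 5-prime ACTB probe sets, a sign of RNA quality, was 0.69 ± 0.03 (log2, SD, n = 2) in control. It was 0.68 ± 0.09 with Wee1 inhibitor II, 0.96 ± 0.08 with 17-AAG and 0.96 ± 0.05 with both drugs (SD, n = 3 each). The part of pigment or fibroblast marker level or RNA quality in the results below was not tested.

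With both drugs, 45 of the 46 genes fell against control. Their median change was -1.79 on the log2 scale, with a range from -3.42 to 0.02, while the median of all 19775 genes was 0.11. In this comparison 11.3% of all genes were called lower and 16.7% higher. Among the 8952 genes with a signal of at least 100 in some group, which include all 46, 22.8% were called lower. Calls here are adjusted p-values under 0.05 from a limma fit over all genes, with Benjamini-Hochberg adjustment. Signals are linear and relative to each array's overall brightness, and group signals are geometric means. Changes are log2 differences of these signals with the standard error of the fit, over 2 control arrays and 3 arrays of each treated group. The median gene of the 46 was left at 28.8% of its control signal, against 78.9% with Wee1 inhibitor II and 80.3% with 17-AAG. By size, 40 genes were at least 2-fold lower and 16 at least 4-fold lower, whereas each single drug left 2 genes at least 2-fold lower and 0 at least 4-fold lower. For 45 genes every combination array lay below both control arrays, while 20.8% of all genes were lower without overlap. These are bulk samples, in which fewer cells in G2 and mitosis and less RNA per cell cannot be told apart.

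**Figure D1:**
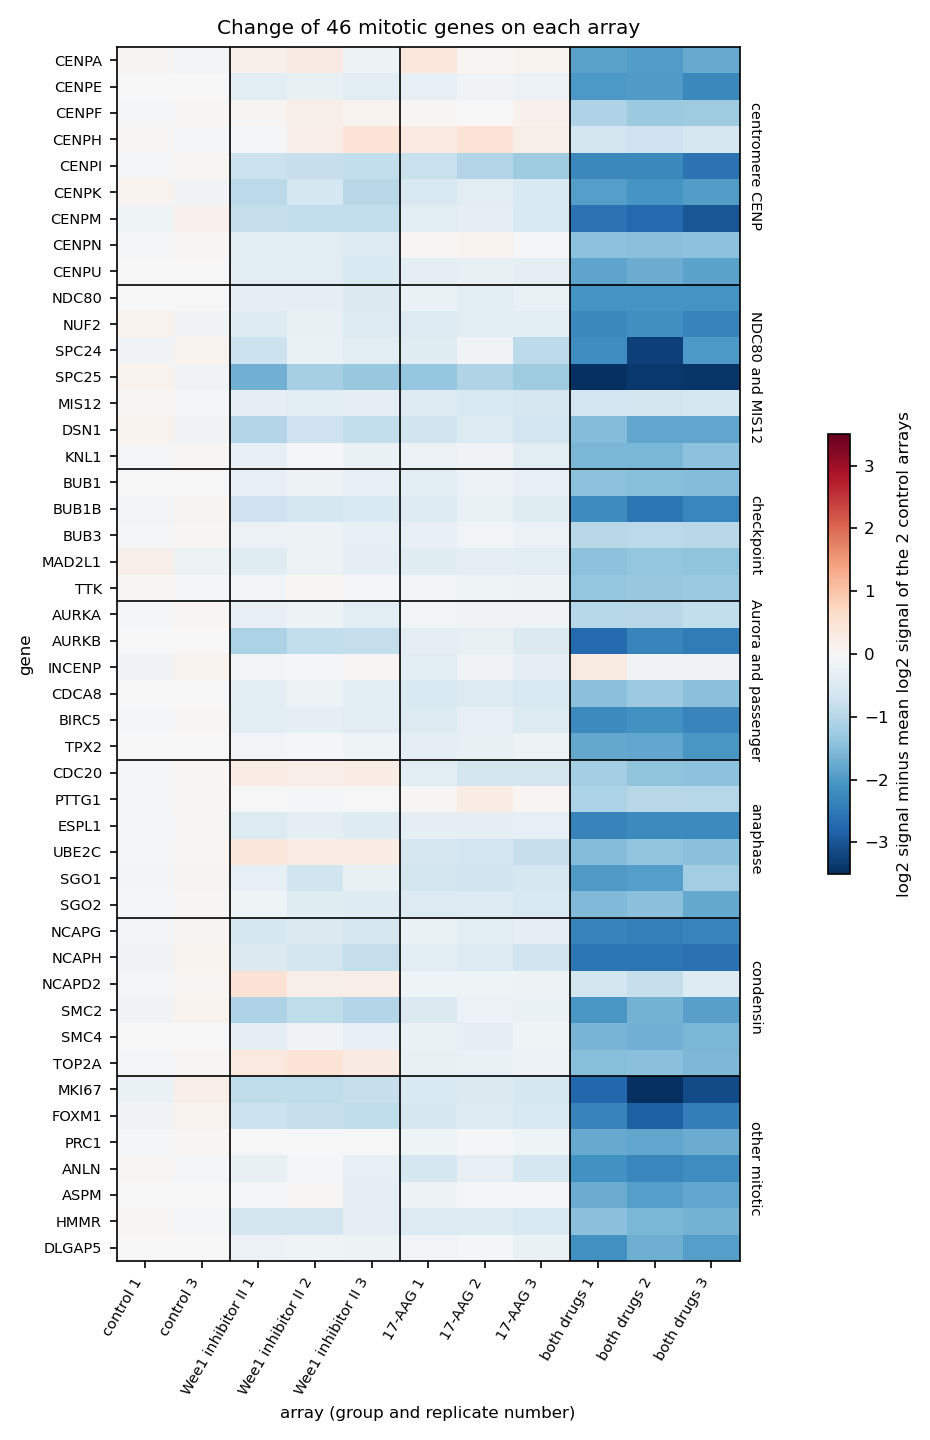
Each cell of the map is the log2 signal of 1 of the 46 genes (rows, by subgroup) on 1 of 11 arrays (columns) minus that gene's mean over the 2 control arrays, with blue for lower and red for higher. The 3 columns of both drugs are blue in every row but INCENP, and the single-drug columns are pale.

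Centromere CENP genes fell together with both drugs, 9 of 9, with a median of -1.86. CENPE read 605 and 617 on the control arrays, 470.2, 508 and 476 with Wee1 inhibitor II, 499.9, 559.6 and 529 with 17-AAG and 153, 154 and 128 with both drugs. The combination arrays were far below all others, and the single-drug arrays lay under control. CENPE, the kinesin that carries chromosomes to the spindle equator, fell by 2.08 ± 0.10 (adjusted p = 1.32e-05). CENPU read 2195 and 2175 on the control arrays, 1703, 1674 and 1515 with Wee1 inhibitor II, 1728, 1818 and 1734 with 17-AAG and 606, 660.3 and 601 with both drugs. CENPU, a subunit of the constitutive centromere network, fell by 1.81 ± 0.09 (adjusted p = 1.17e-05). It was also called lower with each drug alone, but the 17-AAG call (-0.31, adjusted p = 0.0422) held under only 6 of 25 settings, and it was lost without any 1 of 10 of the 11 arrays. CENPA is the histone H3 variant that marks centromeres. Its signal was 563 in control, 599 with Wee1 inhibitor II, 641 with 17-AAG and 155 with both drugs, so that neither single-drug signal was below control. CENPM went from 526 to 77.6 (-2.76 ± 0.14), the deepest fall of the subgroup. CENPH had the shallowest, from 619 to 394 (-0.65 ± 0.15).

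Outer kinetochore genes held the largest change of the 46. SPC25 read 1237 and 1061 on the control arrays, 358, 514 and 460.4 with Wee1 inhibitor II, 452, 553 and 488 with 17-AAG and 103, 110.1 and 108 with both drugs. SPC25, a subunit of the NDC80 complex, was at least 2-fold lower with each drug alone, and the combination arrays overlapped with no other group. It fell by 3.42 ± 0.16 (adjusted p = 1.17e-05), a 10.7-fold drop. NDC80 read 974 and 952 on the control arrays, 764, 764 and 674 with Wee1 inhibitor II, 823, 737 and 815 with 17-AAG and 225, 230.2 and 226 with both drugs. NDC80 binds the microtubule itself, and it fell by 2.09 ± 0.09 (adjusted p = 9.46e-06). The fall with both drugs was called for 7 of 7 genes of the subgroup, with a median of -2.09. MIS12 changed least. MIS12 read 591 and 567 on the control arrays, 469.5, 437 and 455 with Wee1 inhibitor II, 420.3, 401 and 389 with 17-AAG and 366, 371 and 378 with both drugs. MIS12, the scaffold that links NDC80 to the centromere, was lower in all 3 treated groups, and its combination arrays lay just below those of 17-AAG. The difference between these last 2 groups was -0.12 ± 0.07 (adjusted p = 0.294), which was not called. SPC24, another NDC80 complex subunit, read 41.7, 19.6 and 46.6 with both drugs against 172 and 204 in control.

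Checkpoint genes fell in 5 of 5 cases, with a median of -1.40. BUB1 read 1059 and 1039 on the control arrays, 857, 928 and 852 with Wee1 inhibitor II, 817, 911 and 857 with 17-AAG and 389, 372 and 363 with both drugs. The kinase BUB1 recruits the other checkpoint proteins to kinetochores. Its combination arrays were the lowest, its single-drug arrays lay between them and control, and it fell by 1.49 ± 0.08 (adjusted p = 1.99e-05). BUB1B read 1243 and 1399 on the control arrays, 801, 853 and 912 with Wee1 inhibitor II, 957, 1113 and 985 with 17-AAG and 286, 229 and 272 with both drugs. BUB1B, the BubR1 protein that with MAD2L1 traps CDC20, fell by 2.33 ± 0.13 (adjusted p = 1.72e-05), the deepest of the 5. TTK read 1228 and 1172 on the control arrays, 1120.3, 1253 and 1135 with Wee1 inhibitor II, 1117, 1078 and 1063 with 17-AAG and 469.8, 475 and 491 with both drugs. TTK, or MPS1, starts the checkpoint signal. Its single-drug arrays overlapped with control or lay just under it, whereas with both drugs it fell by 1.33 ± 0.08 (adjusted p = 2.47e-05). MAD2L1 went from 3206 to 1213 and BUB3 from 3674 to 1886, the latter at -0.96 ± 0.09 the shallowest of the subgroup. BUB1 rested on 1 of 5 probe sets, and with the mean of its probe sets, 3 of which had mean signals of 5.01 to 10.3, its call was lost (-0.83, adjusted p = 0.254). The call of KNL1, a scaffold of the outer kinetochore, was lost in the same way (-0.95, adjusted p = 0.0523), and no other of the 45 was.

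The chromosomal passenger complex joins the kinase AURKB to INCENP, BIRC5 and CDCA8 and corrects wrong attachments, while AURKA works at spindle poles with its activator TPX2. Of these 6 genes 5 fell with both drugs, with a median of -1.65. AURKB read 817 and 849 on the control arrays, 384, 462 and 469 with Wee1 inhibitor II, 672, 696 and 583 with 17-AAG and 126, 169 and 154 with both drugs. Arrays of the 4 groups did not overlap, with the Wee1 group below the 17-AAG group. AURKB fell by 2.49 ± 0.15 (adjusted p = 2.41e-05). BIRC5 read 1842 and 1964 on the control arrays, 1456, 1543 and 1448 with Wee1 inhibitor II, 1371, 1544 and 1370.0 with 17-AAG and 406, 435 and 383 with both drugs. BIRC5, or survivin, fell by 2.22 ± 0.09 (adjusted p = 9.46e-06). TPX2 read 1002 and 1033 on the control arrays, 951, 968 and 912 with Wee1 inhibitor II, 819, 855 and 904 with 17-AAG and 292, 289.8 and 248 with both drugs. TPX2 was called with neither drug alone and fell by 1.88 ± 0.10 (adjusted p = 1.45e-05) with both. AURKA went from 1982 to 1032 (-0.94 ± 0.09) and CDCA8 from 511 to 193 (-1.41 ± 0.10). INCENP, the scaffold of the complex, was the exception. INCENP read 104 and 123 on the control arrays, 105, 109 and 116 with Wee1 inhibitor II, 86.4, 104 and 90.7 with 17-AAG and 141, 103 and 103 with both drugs. The combination arrays of INCENP overlapped with those of each other group, and the change with both drugs was 0.02 ± 0.16 (adjusted p = 0.96). INCENP was also dim, with group signals of 93.4 to 114.

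Anaphase genes fell in 6 of 6 cases, with a median of -1.53. ESPL1 read 542 and 575 on the control arrays, 404, 443 and 405 with Wee1 inhibitor II, 445, 452 and 459 with 17-AAG and 111, 119 and 119.7 with both drugs. ESPL1, or separase, cuts cohesin to part the sister chromatids. Its combination arrays were far below all others, and it fell by 2.26 ± 0.08 (adjusted p = 5.73e-06). CDC20 read 1038 and 1127 on the control arrays, 1288, 1259 and 1283 with Wee1 inhibitor II, 822, 696 and 696 with 17-AAG and 475, 409 and 399 with both drugs. CDC20, the activator of the anaphase-promoting complex, was higher on every Wee1 array than on either control array and lower on every 17-AAG array. The Wee1 difference was not called (0.24, adjusted p = 0.178) and stood at 0.01 (adjusted p = 0.974) after centring of the arrays, and 28.9% of all genes were higher without overlap in that comparison. With both drugs CDC20 fell by 1.34 ± 0.11 (adjusted p = 9.51e-05). UBE2C read 1053 and 1141 on the control arrays, 1439.6, 1311 and 1319 with Wee1 inhibitor II, 726, 693 and 615 with 17-AAG and 380.2, 419 and 394 with both drugs. UBE2C, the ubiquitin-conjugating enzyme of the same complex, kept the same order of groups and fell by 1.46 ± 0.10 (adjusted p = 4.07e-05). With Wee1 inhibitor II it was not called either (0.31, adjusted p = 0.061), with 0.08 after centring, though quantile normalisation called it higher (0.37, adjusted p = 0.03). PTTG1, or securin, the inhibitor of separase, went from 4695 to 2306 (-1.03 ± 0.10). The shugoshins SGO1 and SGO2, which guard centromeric cohesin, stood at 35.8 and 446 with both drugs, against 117 and 1349.8 in control.

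Condensin subunits, which compact mitotic chromosomes, and TOP2A, the topoisomerase that untangles them, fell in 6 of 6 cases with a median of -1.75. NCAPG read 1292 and 1481 on the control arrays, 904, 966 and 927 with Wee1 inhibitor II, 1178, 1076 and 1114 with 17-AAG and 272, 264 and 278 with both drugs. NCAPG was lowest on the 3 combination arrays, far below all other arrays, and it fell by 2.35 ± 0.09 (adjusted p = 5.73e-06). TOP2A read 2903 and 3122 on the control arrays, 3825, 4204 and 3649.8 with Wee1 inhibitor II, 2534, 2541 and 2597 with 17-AAG and 1062, 1084 and 1014 with both drugs. TOP2A was highest with Wee1 inhibitor II and lowest with both drugs, with no overlap between any groups, and it fell by 1.52 ± 0.09 (adjusted p = 2.06e-05). NCAPH had the deepest change of the subgroup, from 977 to 165 (-2.56 ± 0.13), and NCAPD2 the shallowest, from 863 to 556 (-0.63 ± 0.13). SMC2 and SMC4, the ATPase core, went from 577 to 158 and from 2503 to 806.

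The 7 remaining mitotic genes all fell, with a median of -1.92. MKI67 read 406 and 559.9 on the control arrays, 257, 258 and 272 with Wee1 inhibitor II, 331, 333 and 313 with 17-AAG and 71.4, 30.7 and 54.6 with both drugs. MKI67, the proliferation antigen Ki-67 that coats mitotic chromosomes, fell by 3.27 ± 0.31 (adjusted p = 0.000161), and its combination arrays spread more than those of most members. FOXM1 read 491 and 575 on the control arrays, 317, 299.9 and 288 with Wee1 inhibitor II, 355, 382 and 364 with 17-AAG and 104, 72.9 and 98.8 with both drugs. The transcription factor FOXM1 fell by 2.55 ± 0.16 (adjusted p = 2.47e-05). PRC1 read 2163 and 2348 on the control arrays, 2242, 2287 and 2262 with Wee1 inhibitor II, 2039, 2182 and 2021 with 17-AAG and 662, 639 and 671 with both drugs. PRC1, which bundles microtubules at the spindle midzone, overlapped with control on the arrays of either drug, and all combination arrays lay well below. It fell by 1.78 ± 0.08 (adjusted p = 9.46e-06). ASPM read 1249 and 1205 on the control arrays, 1160.4, 1272 and 991 with Wee1 inhibitor II, 1094, 1187 and 1170.4 with 17-AAG and 368, 323 and 349 with both drugs. ASPM, a spindle pole protein, fell by 1.83 ± 0.12 (adjusted p = 2.96e-05). ANLN, HMMR and DLGAP5 stood at 524, 799.6 and 274 with both drugs against 2391, 2376 and 1034 in control.

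**Figure D2:**
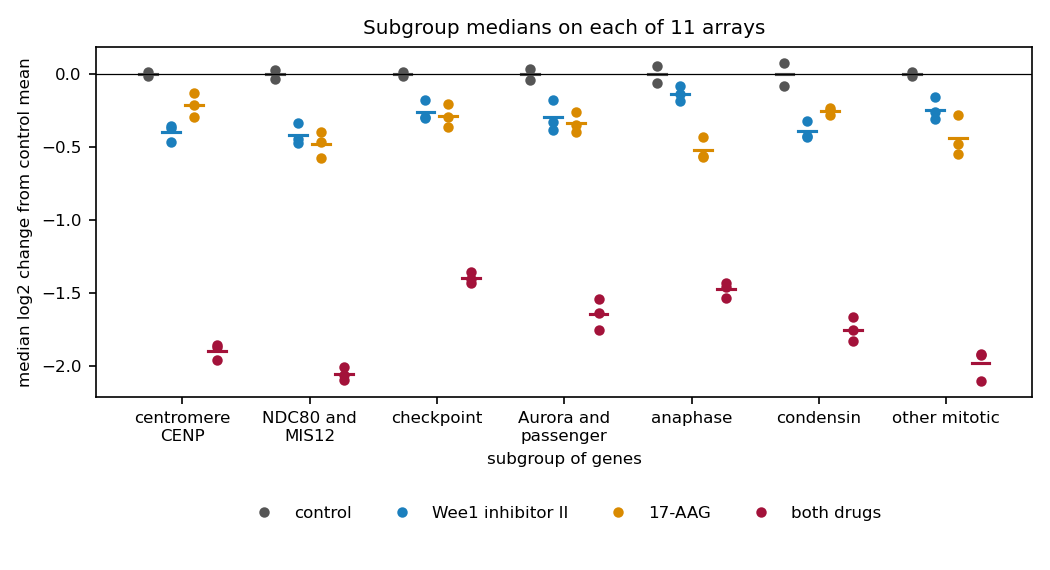
Points are the median log2 change of a subgroup's genes on each of the 11 arrays, measured from the mean of the 2 control arrays, and bars are the means of the arrays of a group. In all 7 subgroups the 3 arrays of both drugs lie below every single-drug array.

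The combination was also lower than each drug alone. Against 17-AAG 44 of 46 genes were lower, with a median of -1.48 (8.43% of all genes were called lower and 10.9% higher), and against Wee1 inhibitor II 45 were lower, with a median of -1.56 (6.84% of all genes lower and 7.27% higher). Among the 8952 genes with a signal of at least 100 in some group, 17% were lower and 18.4% higher against 17-AAG. Against Wee1 inhibitor II these shares were 13.2% and 14.1%. MIS12 and INCENP were the 2 not called against 17-AAG, and INCENP the 1 not called against Wee1 inhibitor II. The changes in these comparisons use no control array, and the control arrays enter their p-values only through the spread shared by all groups. Against 17-AAG MKI67 had the largest difference, -2.72 ± 0.28 (adjusted p = 0.00044), and against Wee1 inhibitor II it was again MKI67, -2.41 ± 0.28 (adjusted p = 0.000811). In all, 44 of the 46 genes were called lower with both drugs than in each of the 3 other groups, against 2.88% of all genes. For 11 genes all 3 treated groups were called lower than control, against 3.54% of all genes. Of these 11 only SPC25 kept its 3 calls whichever array was left out. Each of the rest lost a single-drug call in some of these fits, CENPK and CENPU that of 17-AAG in 10 of them.

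With control replicate 2 included the counts dropped to 23 genes against control, 20 against 17-AAG and 21 against Wee1 inhibitor II, and that array enters the last 2 only through the spread shared by all groups. It carries epithelial and prostate markers and not pigment cell markers, so this fit joins arrays of unlike marker content in the control group. In that fit NCAPD2 turned to 0.08 against control. Centring each array on its median or quantile normalisation gave 45 genes lower than control. As for other probe sets of the same genes, 26 of the 47 had a mean signal of at least 100, and all 26 were lower with both drugs and called. Of the calls of the combination, that of CENPH against control was lost without control replicate 1 (adjusted p = 0.09). NCAPD2 against 17-AAG was lost without 17-AAG replicate 1, 2 or 3 or combination replicate 1 or 2. MIS12 against Wee1 inhibitor II was lost without Wee1 replicate 1 or 3 or any 1 of the combination arrays. With the mean of probe sets 4 calls against 17-AAG were lost (CENPI, SPC24, KNL1 and BUB1), and 4 against Wee1 inhibitor II (CENPI, CENPN, MIS12 and BUB1).

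Each drug alone moved fewer genes and by less. With Wee1 inhibitor II 20 of 46 genes fell and 1, TOP2A, rose, with a median change of -0.34 (10.3% of all genes were called lower and 14.5% higher). Among the 8952 genes with a signal of at least 100 in some group, 21.2% were called lower and 24.2% higher. The falls were led by SPC25 (-1.38 ± 0.16) and SMC2 (from 577 to 288), and by subgroup they took in 6 of 9 CENP genes, 5 of 7 outer kinetochore genes and 1 of 5 checkpoint genes, BUB1B. AURKB went from 833 to 436 and fell by 0.93 ± 0.15 (adjusted p = 0.00287). TOP2A rose by 0.37 ± 0.09 (adjusted p = 0.0162), but by 0.14 with an adjusted p of 0.451 after centring of the arrays. Centring moved the median of all genes by -0.23 in this comparison and gave 27 calls, all of them falls, and quantile normalisation gave 17 falls and 2 rises. Counts were 13 without control replicate 1 and 13 without control replicate 3, 8 in a fit of only these 2 groups, and 1 with control replicate 2 included.

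With 17-AAG 16 of 46 genes fell and 0 rose by limma, also 0 at an unadjusted p under 0.05, with a median change of -0.32 (6.8% of all genes were called lower and 9.93% higher). Among the 8952 genes with a signal of at least 100 in some group, 13.6% were called lower and 18.6% higher. The 16 that fell were 4 anaphase genes, 4 NDC80 and MIS12 genes, 3 CENP genes, 2 Aurora and passenger genes, 1 condensin gene and 2 other mitotic genes. UBE2C went from 1096 to 676 and fell by 0.70 ± 0.10 (adjusted p = 0.00355), and CDC20 fell by 0.56 ± 0.11 (adjusted p = 0.0128). SPC25 again had the largest fall, -1.21 ± 0.16. No checkpoint gene was called by limma, and 3 of the 5 had an unadjusted p under 0.05. BUB1, for instance, stood at -0.28 ± 0.08 with an adjusted p of 0.0538. Calls numbered 5 without control replicate 1, 7 without control replicate 3, 7 without 17-AAG replicate 1 and 6 without 17-AAG replicate 3, 5 after centring, 28 with only genes of signal 100 or more tested, and 1 with control replicate 2 included. A limma fit of only these 2 groups called 0, with 22 at an unadjusted p under 0.05.

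Set directly against each other, the drugs differed in 8 of the 46 genes, with 4 higher and 4 lower in the Wee1 group. That is 8.7% of the 46 in each direction, near the 10.2% and 8.52% of all genes, so the count is no result about these genes and the values are given as a description. UBE2C was higher with Wee1 inhibitor II by 1.00 ± 0.09 (adjusted p = 0.000225), CDC20 by 0.80 ± 0.10 (adjusted p = 0.0012), TOP2A by 0.60 ± 0.08 (adjusted p = 0.00131) and NCAPD2 by 0.48 ± 0.11 (adjusted p = 0.0205). The 4 lower ones were SMC2 (-0.68 ± 0.13), AURKB (-0.57 ± 0.13), CENPM (-0.43 ± 0.13) and CENPN (-0.42 ± 0.08). For these 8 genes the arrays of the 2 drugs did not overlap, which adds no support, since the genes were picked by their difference on the same arrays. In either direction, 25 of the 46 genes did not overlap. Of all genes, 21.6% did not overlap in the higher and 15.1% in the lower direction. Centring moved the median of all genes by -0.24 here and gave 3 higher and 11 lower genes, and NCAPD2 was no longer called (0.24, adjusted p = 0.301). Counts were 5 without Wee1 replicate 1 and 5 without 17-AAG replicate 1. With the mean of probe sets CENPM (-0.43, adjusted p = 0.0769), CENPN (-0.06, adjusted p = 0.931) and AURKB (-0.24, adjusted p = 0.562) were not called. For the other 38 genes a difference was not shown, which does not make the 2 responses alike.

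**Figure D3:**
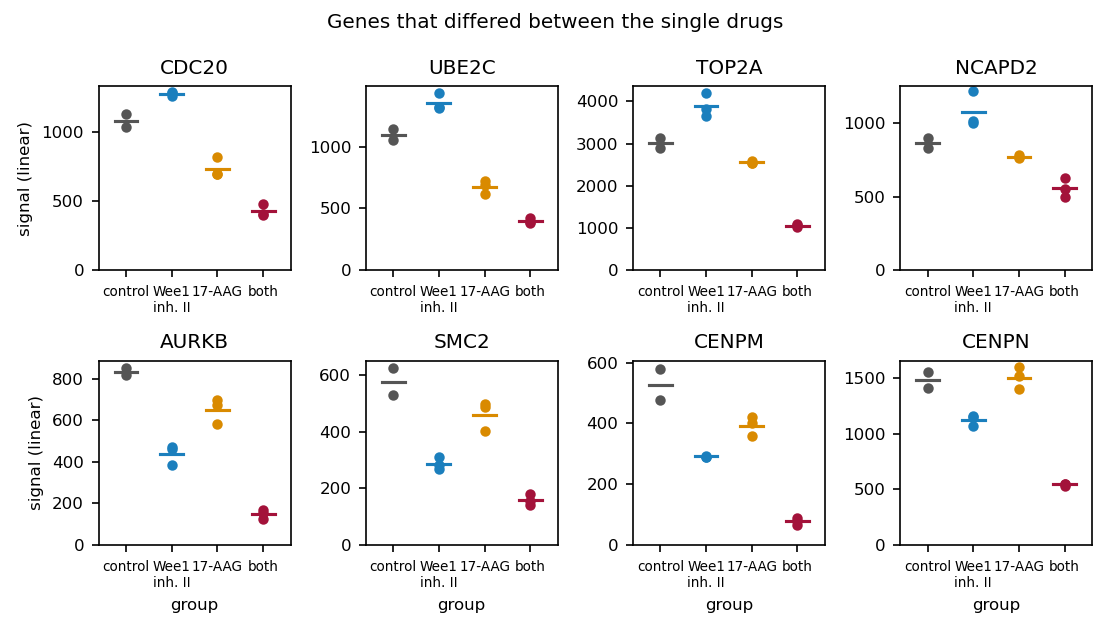
Linear signal of the 8 genes that differed between the single drugs, with a point per array, a bar at the geometric mean of the group, and axes from 0. CDC20, UBE2C, TOP2A and NCAPD2 are higher with Wee1 inhibitor II than with 17-AAG, AURKB, SMC2, CENPM and CENPN are lower, and all 8 are lowest with both drugs.

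The interaction compares the change with both drugs with the sum of the 2 single changes on the log2 scale, so that a negative value means a fall deeper than the drugs' separate effects multiplied together. It was called below 0 for 37 of 46 genes and above 0 for 0 by limma, also 0 at an unadjusted p under 0.05 (6.97% of all genes were called below 0 and 4.82% above). Among the 8952 genes with a signal of at least 100 in some group, 13.5% were called below 0 and 9.6% above. The median of the 46 was -1.15, against -0.03 for all genes. In signal, the median gene read 45.1% of what the product of the single-drug effects would give. CENPA had the largest value, -2.14 ± 0.21 (adjusted p = 0.00137): from the single-drug changes a signal of 681 would be reached, and 155 was measured. CENPA is among the 23 of the 46 genes with only 1 probe set to use, so no second probe set could be compared. PRC1 had the smallest p, with -1.67 ± 0.10 (adjusted p = 0.000389). TOP2A, which rose with Wee1 inhibitor II, had -1.65 ± 0.12 (adjusted p = 0.000542), so that an expected 3301 stood against a measured 1053. Neither drug alone was called to lower these 3 genes. ESPL1 had -1.53 ± 0.11 (adjusted p = 0.000542), TPX2 -1.53 ± 0.13 (adjusted p = 0.000894) and NDC80 -1.41 ± 0.12 (adjusted p = 0.000899). CENPE stood at -1.54 ± 0.14, TTK at -1.14 ± 0.11, AURKB at -1.19 ± 0.20, CDC20 at -1.03 ± 0.15, FOXM1 at -1.19 ± 0.21 and BUB1 at -0.94 ± 0.11.

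By subgroup the interaction was called for 7 of 9 CENP genes, 4 of 7 NDC80 and MIS12 genes, 5 of 5 checkpoint genes, 5 of 6 Aurora and passenger genes, 5 of 6 anaphase genes, 5 of 6 condensin genes and 6 of 7 other mitotic genes. SPC25, whose single-drug falls were the largest, had an interaction of -0.83 ± 0.22 (adjusted p = 0.0456). The 9 genes not called were CENPI, CENPK, SPC24, MIS12, DSN1, INCENP, SGO1, SMC2 and HMMR. MIS12 and INCENP had values above 0, at 0.23 ± 0.10 and 0.33 ± 0.22, and SPC24 at -1.54 ± 0.52 had the widest error of the 46. With control replicate 2 included 7 interactions were called. Of the 37 calls 29 held when any 1 of the 11 arrays was left out, and 8 were lost in some of these fits. The call of SPC25 was lost without any of 10 of the 11 arrays, MAD2L1 and CDCA8 without any of 9, SGO2 without any of 8, AURKA and BUB3 without any of 7, MKI67 without any of 6 and NCAPD2 without any of 4. The adjusted p of these lost calls ran from 0.0501 to 0.152. That of MKI67 (-1.86 ± 0.41, adjusted p = 0.0253) was lost without control replicate 1, without any 1 of the 3 Wee1 arrays, without 17-AAG replicate 1 or 3, or after centring, at an adjusted p of 0.0524 to 0.0973. With the mean of probe sets 8 of the 37 interactions were no longer called: CENPN (-0.96, adjusted p = 0.27), SPC25 (-0.83, adjusted p = 0.0767), KNL1 (-0.44, adjusted p = 0.603), BUB1 (-1.63, adjusted p = 0.165), BUB3 (-0.60, adjusted p = 0.258), AURKA (-0.46, adjusted p = 0.199), AURKB (-0.44, adjusted p = 0.525) and CDCA8 (-0.58, adjusted p = 0.0652).

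**Figure D4:**
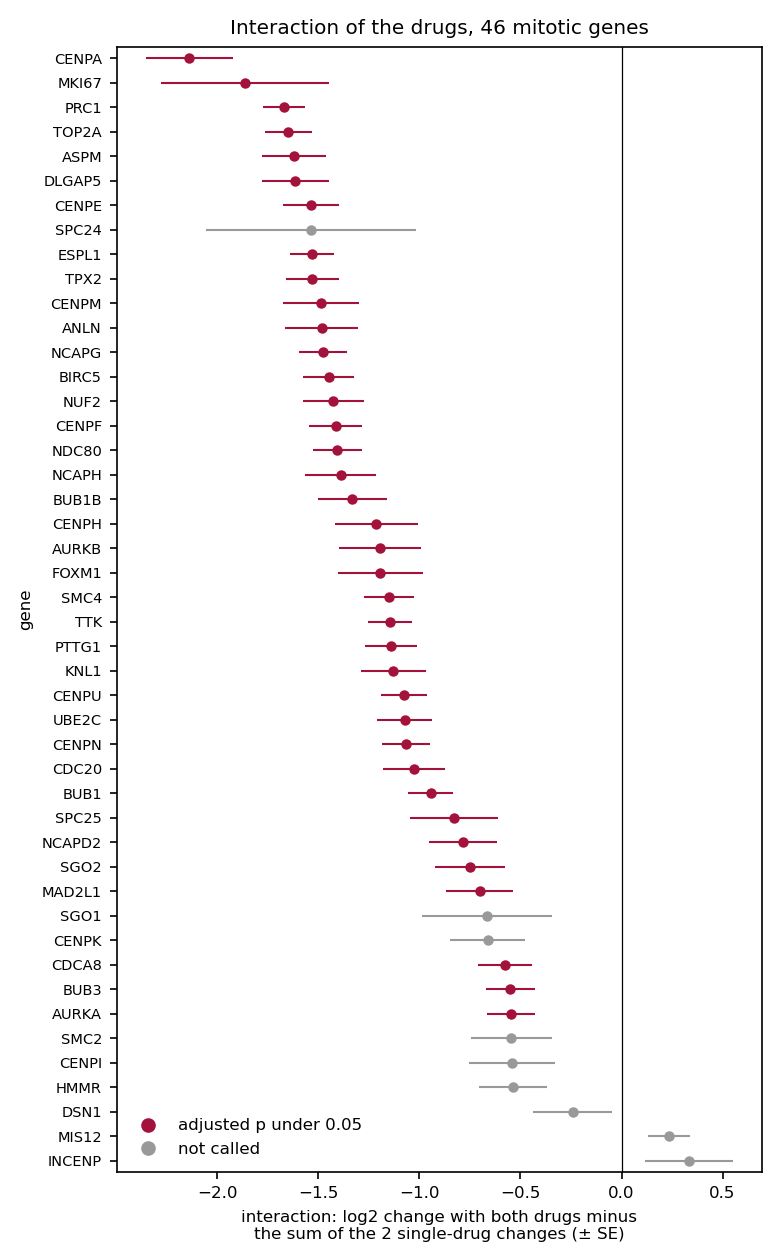
Interaction of the drugs (log2, point ± SE) for each of the 46 genes, in order of size, with the 37 called genes in dark red and the 9 others in grey. CENPA lies farthest below 0 at -2.14, and only MIS12 and INCENP lie above 0.

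Genes with the CHR core in their window were compared with those without it as a description. The 23 genes with it had a median change of -1.83 with both drugs and an interaction of -1.41, and the 13 without it -1.81 and -0.94. For CCAAT the medians were -1.65 and -1.07 in the 26 genes with it, and -2.14 and -1.37 in the 10 without.

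Beyond the 46 genes, 82 of 87 further genes of the same machinery were measured, and with both drugs 57 fell and 2, ANAPC16 and MAU2, rose, with a median of -0.95. The shares of all genes were 11.3% lower and 16.7% higher. Among the 8952 genes with a signal of at least 100 in some group they were 22.8% and 27.9%. Among other kinetochore genes 20 of 26 fell and 0 rose by limma, also 0 at an unadjusted p under 0.05. ZWINT, which helps to hold checkpoint proteins at the kinetochore, went from 4381 to 863 (-2.34 ± 0.12, adjusted p = 1.32e-05), and OIP5, which helps to load CENPA, from 637 to 142 (-2.16 ± 0.11, adjusted p = 1.55e-05). Of mitotic kinases and cytokinesis genes 18 of 19 fell, among them NUSAP1, a microtubule-binding protein (-2.04 ± 0.09, adjusted p = 1.17e-05), and CCNA2, cyclin A2 (-1.99 ± 0.09, adjusted p = 1.17e-05). In the list of MuvB and MYBL2, 4 of 5 fell. MYBL2, the activator that joins MuvB, went from 572 to 62.9 (-3.19 ± 0.18, adjusted p = 1.98e-05), while LIN52, a core subunit, stood at -0.71 ± 0.11 (adjusted p = 0.00189).

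In the list of the anaphase-promoting complex 6 of 16 genes were lower and 1 higher with both drugs, against 11.3% and 16.7% of all genes. The inhibitor FBXO5 fell from 689 to 142 (-2.28 ± 0.20, adjusted p = 0.000118), but the subunit CDC16 read 2978 in control and 3503 with both drugs (0.23 ± 0.09, adjusted p = 0.0968). With Wee1 inhibitor II alone CDC16 fell by 0.71 ± 0.09 (adjusted p = 0.000991). Its interaction was called above 0, as were those of ANAPC10, CDC23 and CDC26, the 4 interactions called above 0 among the 82 (4.88%, near the 4.82% of all genes). All 4 lie in this list, where they are 25% of the 16 genes. In the same list 12.5% were called below 0, and the median interaction was 0.26. Of 13 cohesin genes 7 fell and 1 rose with both drugs. CDCA5, or sororin, stood at -1.53 ± 0.10 (adjusted p = 3.22e-05) and ESCO2, a cohesin acetyltransferase, at -2.26 ± 0.17 (adjusted p = 5.99e-05). Of the 3 subunits of condensin II, NCAPG2 (-1.45 ± 0.11, adjusted p = 6.53e-05) and NCAPH2 (-1.53 ± 0.21, adjusted p = 0.001) fell and NCAPD3 was not called. The interaction was called below 0 for 30 of the 82 genes (36.6%), 16 of them in the list of mitotic kinases and cytokinesis. The share was 6.97% over all genes and 13.5% over those with a signal of at least 100 in some group.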

How the data were processed

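RNA of 12 samples was labelled from 100 ng and hybridised to Affymetrix 3-prime expression arrays. Each probe set has 1 deposited intensity value per array, on a linear scale. Partek 6.5 and RMA are named in the submitters' processing notes, and how they were applied is not given in the sources used here. The values were log2 transformed and not normalised again, since each array already has a trimmed mean of 150. Array number, 2 or 3 per group, limits the precision. Of 54675 probe sets 41091 carry 1 gene symbol, and the one with the highest mean over the 11 arrays stood for each of 19775 genes, with symbols updated through RefSeq.

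limma 3.58.1 in R 4.3.3 fitted a mean per group over 11 arrays, with 7 contrasts and Benjamini-Hochberg adjustment over all genes, and errors of log2 changes are its standard errors. The fit was tested on simulated data. The 46 genes, the other lists and the alternatives were chosen with earlier results of these data known. Values per array were given for BUB1, AURKB, CDC20, FOXM1, MKI67 and TOP2A and, per subgroup, the 2 genes with the smallest p in pairwise comparisons and the 1 with the smallest in the interaction. Other lists name their 2 smallest p. INCENP, MIS12, SPC24, CENPA the genes at each end of a subgroup and genes behind small counts were added after their values were seen. Alternatives were control replicate 2 included, array weights, the replicate block, trended and robust moderation, quantile normalisation, centring, a filter on dim genes, other probe set rules, stricter thresholds, fits of only the groups compared and each array left out; a minimum signal of 100 was added after seeing the data.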

Additional observations from a re-analysis of the deposited data

Results flagged for a closer look

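By the interaction term of the limma fit, 6.97% of all genes were called below 0 and 4.82% above. For the 8952 genes whose signal reached 100 in any group the shares were 13.5% and 9.6%. Of the 46 genes, 37 had an effect of 17-AAG that differed between cells with and without Wee1 inhibitor II. Every one of these 37 interactions was below 0 (log2). Among centromere CENP genes they were CENPA (-2.14), CENPE (-1.54), CENPF (-1.41), CENPH (-1.21), CENPM (-1.49), CENPN (-1.07) and CENPU (-1.08). For the NDC80 and MIS12 complexes they were NDC80 (-1.41), NUF2 (-1.43), SPC25 (-0.83) and KNL1 (-1.13). Checkpoint genes with an interaction were BUB1 (-0.94), BUB1B (-1.33), BUB3 (-0.55), MAD2L1 (-0.70) and TTK (-1.14). Aurora and passenger genes were AURKA (-0.55), AURKB (-1.19), CDCA8 (-0.58), BIRC5 (-1.45) and TPX2 (-1.53). The anaphase genes were CDC20 (-1.03), PTTG1 (-1.14), ESPL1 (-1.53), UBE2C (-1.07) and SGO2 (-0.75). Condensin genes, counted with topoisomerase II, were NCAPG (-1.48), NCAPH (-1.39), NCAPD2 (-0.78), SMC4 (-1.15) and TOP2A (-1.65). The other mitotic genes were MKI67 (-1.86), FOXM1 (-1.19), PRC1 (-1.67), ANLN (-1.48), ASPM (-1.62) and DLGAP5 (-1.61). Not all 37 calls were stable. Those of SPC25, MAD2L1, CDCA8, SGO2, AURKA, BUB3, MKI67 and NCAPD2 were each lost in some fits without 1 array. The remaining 29 calls held in all 11 such fits. Averaging probe sets removed the calls of CENPN, SPC25, KNL1, BUB1, BUB3, AURKA, AURKB and CDCA8.

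The control array that was set aside carries epithelial and prostate markers in place of pigment cell markers. It read below both other control arrays for 43 of the 46 genes, with a median log2 difference of -1.21 from their mean, and above both for 2 (93.5% and 4.35%). Of all 19775 genes 41% read below both and 43% above both, and of the 9327 with a signal of at least 100 in control or on that array, 48.4% and 46.4%. UBE2C at 1243 and DLGAP5 at 1056 were the 2 genes that read above both other control arrays there. With 1 such array there is no replicate check. Its title notes a weak signal, but its median signal was 20.8, against 17.7 to 23.1 on the other arrays. Since every array has a trimmed mean of 150, these values cannot show whether its signal was weak before processing. Its highest correlation with another array was 0.833, against 0.926 or more for each other array.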

How the results depend on the processing

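With both drugs there were 44 to 45 calls against control, 43 to 44 against 17-AAG and 44 to 45 against Wee1 inhibitor II when 1 array was left out, and 30 to 34 interactions. Of the 45 calls against control 21 held under all 25 settings. Except for KNL1 and BUB1, every call not held was lost in the setting with control replicate 2, the array with epithelial and prostate markers. Including control replicate 2 left 23, 20 and 21 calls, 7 interactions, and 1 call each for Wee1 inhibitor II against control, 17-AAG against control and the single drugs against each other. For Wee1 inhibitor II against control (21 calls) there were 13 at an adjusted p under 0.01, 2 at 2-fold, 8 with only the groups compared, and 13 to 23 with 1 array left out. For 17-AAG against control (16 calls) there were 4 at an adjusted p under 0.01, 2 at 2-fold, 0 by limma with only the groups compared (22 at an unadjusted p under 0.05), 5 after centring, 9 with every probe set tested, 26 with trended and robust moderation, 25 without the dimmest 40% of genes, 28 with only genes of signal 100 or more tested, and 5 to 15 with 1 array left out. Wee1 inhibitor II against 17-AAG (8 calls) gave 5 at an adjusted p under 0.01, 1 at 2-fold, 4 with only the groups compared, 14 after centring, 5 with the mean of probe sets, 13 at a signal of at least 100, and 5 to 9 with 1 array left out. Under the replicate block there were 10 calls for 17-AAG and 32 interactions. Arrays with the same number did not deviate together (r -0.137 to 0.0958 over 15 pairs, -0.184 to 0.184 over 30 pairs of different number), so the numbers were not taken to pair the samples. Deviations of the 2 control arrays from their mean are mirror images, so these r values are not independent. With 2 or 3 arrays per group this check cannot exclude a pairing. Where no cause follows from fewer genes or arrays or a stricter threshold, the cause was not tested. Dim genes such as INCENP, SPC24 and SGO1 limit what can be called.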
